A study of Gallus gallus with 9 samples.

Results

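INHBA, BMP4, and BMPR1A, 3 chicken genes of activin and bone morphogenetic protein (BMP) signaling, were followed through all 9 whole-transcriptome libraries. They were chosen by name, with earlier results of these data known. Their Ensembl identifiers are those that the study's list of pluripotency regulating genes gives them. Each of the 3 was found among the 24356 genes of the count tables and among the 22698 genes with at least 1 count. INHBA (ENSGALG00000034616) lies on chromosome 2 of GRCg6a, from 50572648 to 50587618 on the minus strand, and spans 15.0 kb. BMP4 (ENSGALG00000012429) lies on chromosome 5, from 58714564 to 58717395 on the minus strand, and spans 2.83 kb. BMPR1A (ENSGALG00000002003) lies on chromosome 6, from 3229366 to 3305485 on the plus strand, and spans 76.1 kb. All of them are protein coding genes, and in the RefSeq annotation of the later assembly GRCg7b none of them overlaps another gene.

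The libraries came from White Leghorn embryos, with no genetic change or treatment given for any of them, and each group had 3 replicates. Primordial germ cells (PGCs), the precursors of sperm and eggs, were enriched from gonads at Hamburger and Hamilton (HH) stage 28. An antibody against SSEA-1, a sugar epitope on the surface of these cells, was used with magnetic beads that bind the antibody. The label gives 484, 658, or 684 for the number pooled in a replicate, and the study's methods count these as gonads. Each replicate is thus a large pool, and the somatic gonadal cells left in it were not measured here. EGK.X blastoderms, the embryos of freshly laid eggs at Eyal-Giladi and Kochav stage X, were pooled by 10 and were not sorted. Chicken embryonic fibroblasts (CEFs) were grown from the body of 5 embryos per replicate at HH stage 28 (embryonic day 6), without organs and limbs, and were cultured to passage 2. PGCs and CEFs thus came from embryos of the same stage, but the CEFs then spent days in culture. They also differ in tissue and sorting. PGCs and EGK.X blastoderms differ in stage, tissue, and sorting, and EGK.X blastoderms and CEFs differ in stage, tissue, and culture. Within each comparison these differences cannot be told apart.

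Activins are secreted dimers of the inhibin beta subunits, and the dimer of the subunit encoded by INHBA is activin A. Activin binds a type II receptor that recruits a type I receptor, ACVR1B or ACVR1C, which passes the signal to SMAD2 and SMAD3. BMP4 is a secreted ligand of the same superfamily. It binds type I receptors such as BMPR1A together with a type II receptor, and these pass the signal to SMAD1 and its close relatives. BMP4 is known for patterning the early embryo, and in mouse it is needed for the germ line to form. Activin and BMP ligands are also used in media for growing chicken PGCs.

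Total counts on genes lay between 29512715 and 67475925 per library, lowest in PGC replicate 2, and levels are given as CPM, the count of a gene relative to the size of its library, after TMM factors adjusted that size for abundant genes that take up a large share of it. These factors lay within 1.16 and 1.26 in PGCs, within 1.03 and 1.13 in EGK.X blastoderms, and within 0.739 and 0.771 in CEFs. EGK.X blastoderm replicate 3 stood apart from replicates 1 and 2, with a chi-square per degree of freedom of 196 and 202 between their counts, against 24.8 between replicates 1 and 2. The CEF replicates differed from each other by 107 to 203, and the PGC replicates by 15.9 to 23.9. This value also grows with depth, which differed between groups, so between groups it does not measure the spread alone. Of the markers, NANOG had 140 to 150 CPM in PGCs, 567 to 683 CPM in EGK.X blastoderms, and 0 to 0.0399 CPM in CEFs. Pou5f3 had 157 to 207 CPM in PGCs, 446 to 620 CPM in EGK.X blastoderms, and 8.11 to 10.5 CPM in CEFs. Both transcription factors of pluripotent and germ cells were thus present where the labels place such cells. SOX2, a further marker, was low, with 3.14 to 3.59 CPM in PGCs and 0 to 0.140 CPM in CEFs. In EGK.X blastoderms it had 1.53 to 5.95 CPM, highest in replicate 3. Markers of gonadal somatic cells and of fibroblasts were not used here, because no identifier is paired with their names.

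The first question was how PGCs and blastoderms differ from fibroblasts in the ligand genes, and INHBA gave the widest difference of the 3 genes. INHBA had counts of 4, 0, and 1 in PGC replicates 1 to 3, and of 2, 2, and 0 in EGK.X blastoderm replicates 1 to 3. In CEF replicates 1 to 3 it had counts of 13612, 6453, and 10548. The fibroblast libraries were thus high without exception, and the other 6 libraries were at or close to 0. In normalized values, INHBA averaged 0.0247 ± 0.0292 CPM in PGCs, 0.0193 ± 0.0168 CPM in EGK.X blastoderms, and 241 ± 36.6 CPM in CEFs (SD, n = 3 each). A difference in the share of cells that transcribe the gene and a difference in RNA per cell cannot be told apart in such bulk libraries.

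**Figure D1:**
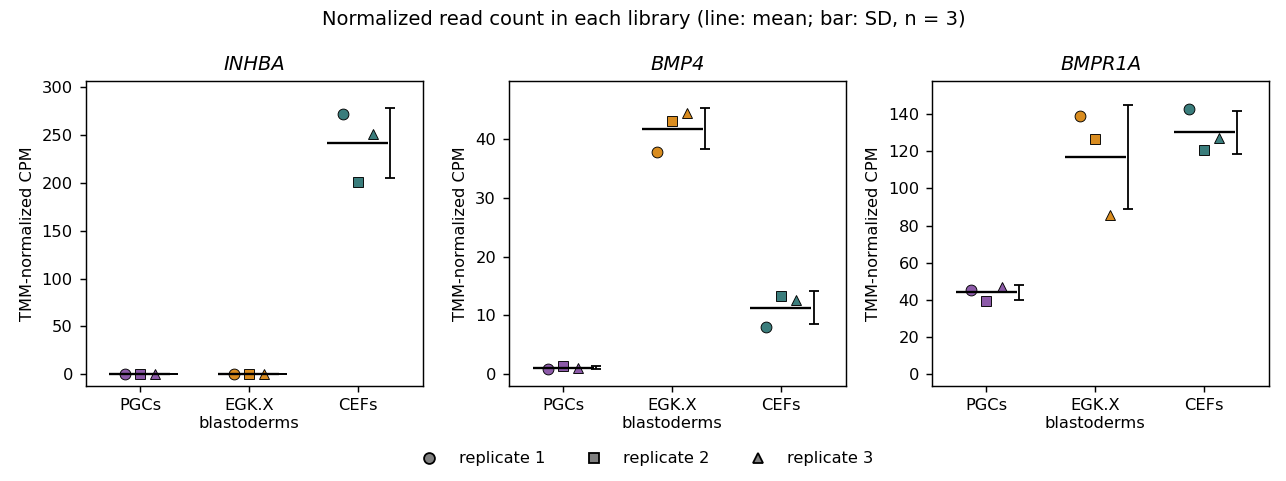
TMM-normalized CPM (vertical axes, linear, with a separate scale per panel) of INHBA, BMP4, and BMPR1A in PGCs, EGK.X blastoderms, and CEFs. Points are libraries, with a shape for each replicate number, lines are means, and bars are SDs of 3 replicates. INHBA sits at 0.0569 CPM or less outside the CEFs, BMP4 takes separate ranges in the 3 groups, and BMPR1A overlaps between EGK.X blastoderms and CEFs.

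Summed over the replicates and scaled, the INHBA signal of PGCs was 0.0122% of that of CEFs, with an exact 95% interval from 0.00397% to 0.0286%. For EGK.X blastoderms it was 0.00787% of the CEF signal, with an interval from 0.00215% to 0.0202%. These intervals cover counting error only and take reads as independent molecules. In the fit of all genes, described after these results, the log2 fold change of INHBA was -12.87 in PGCs against CEFs (standard error 0.40, adjusted p = 1.92e-10 by the quasi-likelihood test of edgeR, with the method of Benjamini and Hochberg applied over all genes). It was -13.44 in EGK.X blastoderms against CEFs (standard error 0.41, adjusted p = 2.07e-10 in edgeR). Only 14 of the 22698 genes tested had a lower log2 fold change in PGCs against CEFs, and 10 had one in EGK.X blastoderms against CEFs. Fitted values against so few counts depend on the small count that edgeR adds, so that the direction and the counts are firmer than the size. The standard errors of INHBA, derived from the F statistic, give 95% intervals narrower than the exact intervals of counting error alone. They therefore understate the uncertainty of its size. PGC replicate 1 held 4 of the 5 INHBA counts of PGCs, and without it the log2 fold change against CEFs was -14.21.

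Between PGCs and EGK.X blastoderms, INHBA gave 5 counts in all in PGCs and 4 in EGK.X blastoderms. The scaled ratio was 1.55 with an exact 95% interval of counting error from 0.335 to 7.83, so a difference between them was not detectable at this depth. The adjusted p was 0.607 in edgeR.

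BMP4, the BMP ligand gene of the list, was the only one of the 3 genes whose level separated all groups from each other. It had 0.981, 1.43, and 1.01 CPM in PGC replicates 1 to 3. In EGK.X blastoderm replicates 1 to 3 it had 37.8, 43.1, and 44.4 CPM. In CEF replicates 1 to 3 it had 8.07, 13.3, and 12.6 CPM. EGK.X blastoderms were highest, CEFs lay between, and PGCs were lowest, with no overlap between the ranges of any pair of groups. The share of all genes with such separation was not counted, for BMP4 or for the genes and ratios below. Separation is therefore not read as particular to them. Taken alone, 3 fully separated libraries per group reach a p of 0.1 at best in an exact two-sided permutation test.

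The PGC values of BMP4 rested on 69, 53, and 59 counts, so the gene was detected in every PGC library, unlike INHBA. The blastoderm values rested on 2493, 3109, and 3021 counts, and the CEF values on 404, 428, and 528 counts. BMP4 averaged 1.14 ± 0.252 CPM in PGCs, 41.7 ± 3.49 CPM in EGK.X blastoderms, and 11.3 ± 2.83 CPM in CEFs (SD, n = 3 each). The spread of the CEFs came mainly from replicate 1, which had the largest library of its group and the lowest BMP4 level.

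In PGCs, BMP4 was 10.0-fold lower than in CEFs, a log2 fold change of -3.32 (standard error 0.25, adjusted p = 2.50e-07 in edgeR). In EGK.X blastoderms it was 3.69-fold higher than in CEFs, a log2 fold change of 1.89 (standard error 0.23, adjusted p = 1.63e-05 in edgeR). BMP4 therefore rose in blastoderms and fell in PGCs relative to the same CEF libraries, which both comparisons share. In PGCs against EGK.X blastoderms it was 37.0-fold lower, at a log2 fold change of -5.21 (standard error 0.27, adjusted p = 1.84e-08 in edgeR), and 1.94% of the genes tested had a lower log2 fold change. In PGCs against CEFs 7.23% of the genes had a lower one than BMP4. In EGK.X blastoderms against CEFs 19.9% had a higher one.

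BMPR1A encodes a type I receptor for BMP ligands, and its level was lower in PGCs than in both other groups. It had 45.4, 39.6, and 47.1 CPM in PGC replicates 1 to 3. In EGK.X blastoderm replicates 1 to 3 it had 139, 127, and 85.5 CPM, and in CEF replicates 1 to 3 it had 143, 121, and 127 CPM. Every PGC library lay below every other library, while EGK.X blastoderms and CEFs overlapped. The transcript was well covered throughout, with 1468 to 3195 counts in PGCs, 5820 to 9165 counts in EGK.X blastoderms, and 3877 to 7158 counts in CEFs. BMPR1A averaged 44.0 ± 3.92 CPM in PGCs, 117 ± 28.0 CPM in EGK.X blastoderms, and 130.2 ± 11.5 CPM in CEFs (SD, n = 3 each).

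BMPR1A was 2.96-fold lower in PGCs than in CEFs, a log2 fold change of -1.56 (standard error 0.18, adjusted p = 9.36e-06 in edgeR). It was 2.66-fold lower in PGCs than in EGK.X blastoderms, a log2 fold change of -1.41 (standard error 0.18, adjusted p = 2.60e-05 in edgeR). Of the genes tested, 18.0% had a lower log2 fold change in PGCs against CEFs, and 18.9% in PGCs against EGK.X blastoderms. Falls of this size were thus common among all genes. The call against CEFs did not hold under every scaling. When libraries were scaled by their size alone, without TMM factors, the log2 fold change was -0.88, short of the size threshold, although the adjusted p was 0.000441 in edgeR. That scaling raised the median over all genes by 0.68 on the log2 scale. Relative to this median BMPR1A was at -1.61 with TMM factors and also at -1.61 with library size alone. A change of scaling shifts all genes of a comparison by nearly the same amount, so this match was fixed in advance. It does not show which scaling is right.

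In EGK.X blastoderms against CEFs, the log2 fold change of BMPR1A was -0.15 with a 95% interval from -0.53 to 0.22 (adjusted p = 0.473 in edgeR). The interval lies inside the threshold of 1 in either direction but includes 0, so no direction is given. EGK.X blastoderm replicate 3 was the lowest of its group, and without it the log2 fold change was 0.027 (adjusted p = 0.880 in edgeR). With library size alone it was 0.34, and with upper-quartile factors 0.032.

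**Figure D2:**
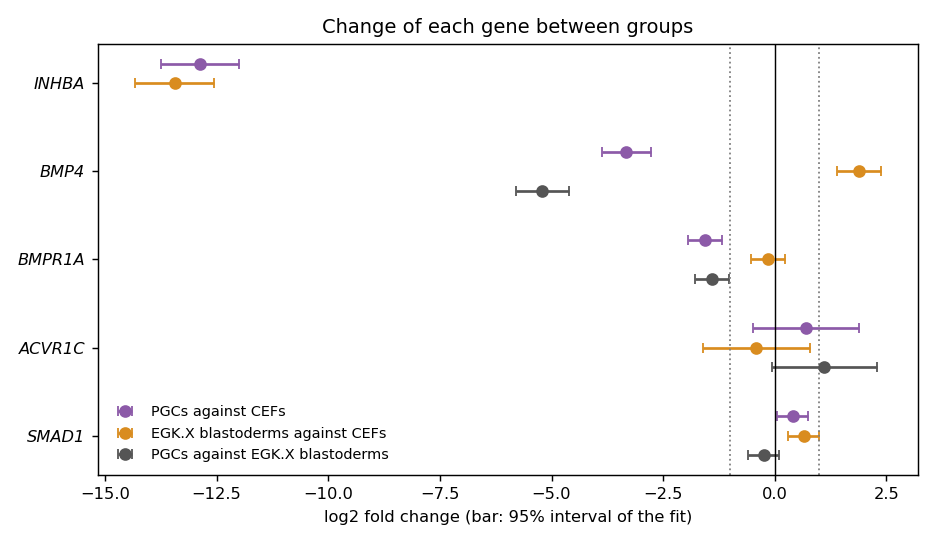
Log2 fold change (horizontal axis) of INHBA, BMP4, BMPR1A, ACVR1C, and SMAD1 in each comparison. Points are edgeR estimates, bars are their 95% intervals, and dotted lines mark the size thresholds of 1 and -1. The INHBA bars are narrower than the exact intervals of its counting error alone, and understate the uncertainty. BMP4 lies beyond the threshold in all 3 comparisons, at -3.32, 1.89, and -5.21, and BMPR1A lies beyond it only where PGCs are compared. INHBA is not drawn for PGCs against EGK.X blastoderms, where both groups were near 0.

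Calls required an adjusted p below 0.05 together with a log2 fold change above 1 or below -1. In PGCs against CEFs, each of the 3 genes was called lower, where 18.5% of all genes tested were called lower, 23.7% higher, and 42.2% in either direction. In EGK.X blastoderms against CEFs, BMP4 was called higher and INHBA lower, where 23.1% of all genes were called higher, 21.6% lower, and 44.7% in either direction. In PGCs against EGK.X blastoderms, BMP4 and BMPR1A were called lower, where 18.5% of all genes were called lower, 23.4% higher, and 41.9% in either direction. With so many genes called in each comparison, the sizes of the changes tell the genes apart more than the calls do. The split of all calls moved with the scaling. With TMM factors 56.2% of the calls in PGCs against CEFs were higher, against 75.1% with library size alone, and in EGK.X blastoderms against CEFs the shares were 51.7% with TMM factors and 66.4% with library size alone.

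The spread between replicates is described next. Each coefficient of variation rests on 3 replicates, and differences between these coefficients were not tested. The coefficient of variation of BMPR1A was 8.90% in PGCs, 23.9% in EGK.X blastoderms, and 8.81% in CEFs, where counting error alone gives 2.01%, 1.12%, and 1.35%. For BMP4 it was 22.1% in PGCs, 8.36% in EGK.X blastoderms, and 25.1% in CEFs, and counting error alone gives 12.9%, 1.87%, and 4.70%. BMPR1A varied most in EGK.X blastoderms, where replicate 3 was low, and BMP4 varied least there. INHBA varied by 15.2% in CEFs, where counting error is 0.990%, and its values in the other groups are too few for a spread. The biological coefficient of variation that edgeR estimated over all libraries was 17.4% for INHBA, 20.9% for BMP4, and 16.9% for BMPR1A. The trend over genes of like abundance was 18.0%, 23.5%, and 17.8% for them. Because edgeR draws the estimate of each gene towards this trend, their closeness is partly built in. Whether the 3 genes vary as is usual at their level is not read from it.

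The study's list held 2 further genes of these pathways, the activin type I receptor gene ACVR1C and SMAD1, which encodes the transcription factor that BMP receptors act on. ACVR1C (ENSGALG00000041257, chromosome 7 of GRCg6a, 36236395 to 36252054) had few counts in all groups. It had 44, 24, and 38 counts in PGC replicates 1 to 3, 20, 20, and 21 counts in EGK.X blastoderms, and 36, 4, and 13 counts in CEFs. The CEF libraries spread over the whole range of the other groups, with 0.719 CPM in replicate 1 and 0.124 CPM in replicate 2. In the RefSeq annotation of GRCg7b this gene overlaps 2 others, ATVR1 and MIR6546, and how the counting treated such overlaps is not given in the sources used here.

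ACVR1C was not called in any comparison of the reported fit. Its log2 fold change was 0.70 in PGCs against CEFs (adjusted p = 0.301 in edgeR) and -0.41 in EGK.X blastoderms against CEFs (adjusted p = 0.550 in edgeR). In PGCs against EGK.X blastoderms it was 1.11, with a 95% interval from -0.07 to 2.29 (adjusted p = 0.103 in edgeR). CEF replicate 1 decided the values against CEFs. Without it, the log2 fold change was 1.52 in PGCs (adjusted p = 0.0366 in edgeR) and 0.41 in EGK.X blastoderms (adjusted p = 0.555 in edgeR). The adjusted p of PGCs against EGK.X blastoderms was 0.0484 without CEF replicate 2 and 0.0315 in the fit of only the 2 groups compared, both with edgeR. The log2 fold changes there were 1.11 and 1.08. ACVR1C was thus called higher in both settings, and also in PGCs against CEFs without CEF replicate 1.

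SMAD1 (ENSGALG00000009977, chromosome 4 of GRCg6a, 31116058 to 31162776) stayed at a similar order of magnitude in the 3 groups. It had 45.6, 43.9, and 46.0 CPM in PGC replicates 1 to 3. In EGK.X blastoderm replicates 1 to 3 it had 57.0, 62.2, and 41.7 CPM, and in CEF replicates 1 to 3 it had 35.4, 34.9, and 32.4 CPM. The CEF libraries were the lowest 3, and blastoderm replicate 3 lay below the PGC libraries while replicates 1 and 2 lay above them.

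SMAD1 was not called in any comparison of the reported fit. Its log2 fold change was 0.40 in PGCs against CEFs (standard error 0.16, adjusted p = 0.0486 in edgeR) and 0.65 in EGK.X blastoderms against CEFs (standard error 0.16, adjusted p = 0.00382 in edgeR), both with a size under the threshold. For PGCs against CEFs the adjusted p was above 0.05 in several alternatives, at 0.0533 with the likelihood ratio test, 0.0581 with filterByExpr, 0.0555 with the minimum of 10 counts, and 0.0563 with a replicate block. Other alternatives gave values below 0.05, at 0.0133 with DESeq2 and 0.039 with limma. In edgeR these were 0.0266 with DESeq2 size factors, 0.0145 with upper-quartile factors, and 0.00202 with only the 2 groups compared. The size stayed under the threshold in all of these. Leaving out single libraries gave adjusted p-values from 0.00455, without EGK.X blastoderm replicate 3, to 0.132, without PGC replicate 1, all in edgeR. In PGCs against EGK.X blastoderms it was -0.25, with a 95% interval from -0.59 to 0.10 (adjusted p = 0.208 in edgeR), and without EGK.X blastoderm replicate 3 it was -0.40 (adjusted p = 0.00898 in edgeR). With library size alone, SMAD1 was called higher in PGCs against CEFs, at 1.09 (adjusted p = 4.93e-05 in edgeR). It was also called higher in EGK.X blastoderms against CEFs, at 1.15 (adjusted p = 3.03e-05 in edgeR). Relative to the median over all genes, SMAD1 was at 0.35 with TMM factors and 0.36 with library size alone in PGCs against CEFs. As for BMPR1A, this match was fixed in advance and does not show which scaling is right.

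**Figure D3:**
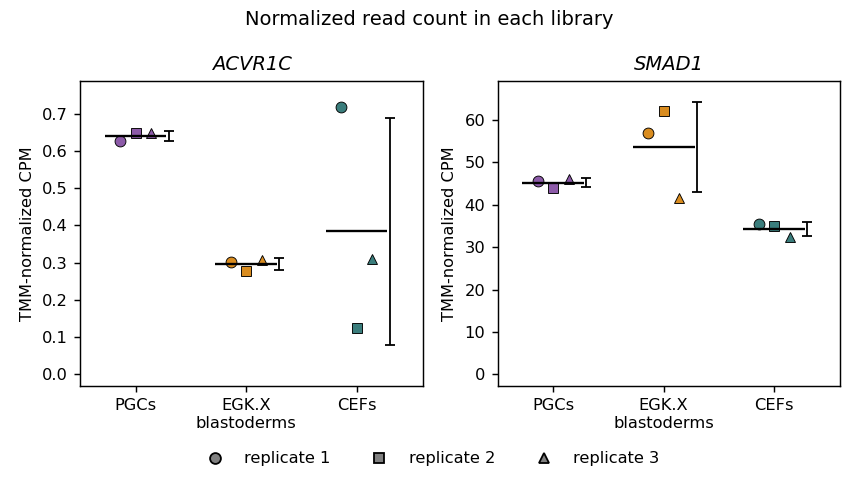
TMM-normalized CPM (vertical axes, linear, with a separate scale per panel) of ACVR1C and SMAD1 in PGCs, EGK.X blastoderms, and CEFs. Points are libraries, lines are means, and bars are SDs of 3 replicates. ACVR1C stays under 0.72 CPM in every library, and SMAD1 is lowest in the 3 CEF libraries.

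Because the scaling moved the BMPR1A values, the genes of the BMP branch were also set against each other within each library, where any scaling factor cancels. Gene lengths differ, so that only differences between groups are read from these ratios. Per 100 counts on BMPR1A, BMP4 had 2.16, 3.61, and 2.14 counts in PGC replicates 1 to 3. In EGK.X blastoderm replicates 1 to 3 it had 27.2, 34.0, and 51.9 counts, and in CEF replicates 1 to 3 it had 5.64, 11.0, and 9.87 counts. The 3 groups did not overlap. The mean log2 ratio of BMP4 to BMPR1A was -5.29 ± 0.43 in PGCs, -1.46 ± 0.47 in EGK.X blastoderms, and -3.56 ± 0.52 in CEFs (SD, n = 3 each). The ratio was thus 3.33-fold lower in PGCs than in CEFs, 4.27-fold higher in EGK.X blastoderms than in CEFs, and 14.2-fold lower in PGCs than in EGK.X blastoderms. Such a ratio alone does not show which gene changed. That BMP4 had the larger log2 fold change in each comparison is read from the fit with TMM factors.

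The ratio of SMAD1 to BMPR1A followed another order. Per 100 counts on BMPR1A, SMAD1 had 97.8 to 111 counts in PGCs, 41.0 to 49.1 counts in EGK.X blastoderms, and 24.8 to 28.9 counts in CEFs, again without overlap. The mean log2 ratio was 0.04 ± 0.10 in PGCs, -1.12 ± 0.15 in EGK.X blastoderms, and -1.93 ± 0.12 in CEFs (SD, n = 3 each). The ratio was 3.91-fold higher in PGCs than in CEFs, 1.75-fold higher in EGK.X blastoderms than in CEFs, and 2.23-fold higher in PGCs than in EGK.X blastoderms. EGK.X blastoderm replicate 3 was not apart here, at 48.7 against 41.0 and 49.1 counts in replicates 1 and 2, so that its low BMPR1A and low SMAD1 levels went together. Both ratios share BMPR1A as the denominator. With TMM factors, the log2 fold changes of SMAD1 and BMPR1A were 0.40 and -1.56 in PGCs against CEFs. They were -0.25 and -1.41 in PGCs against EGK.X blastoderms, where the higher ratio thus went with lower BMPR1A and not with higher SMAD1. In EGK.X blastoderms against CEFs they were 0.65 and -0.15. These ratios are given as a description, and were not tested.

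**Figure D4:**
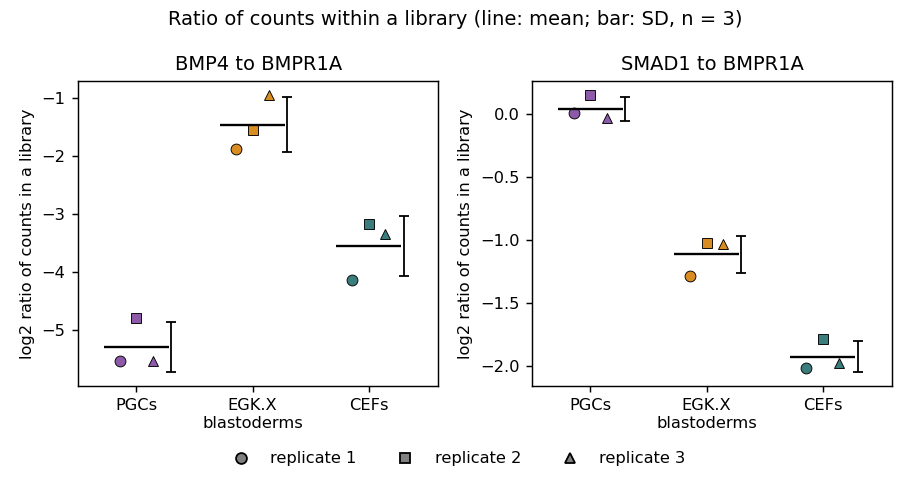
Log2 ratio of counts within a library (vertical axes) for BMP4 to BMPR1A and for SMAD1 to BMPR1A, in PGCs, EGK.X blastoderms, and CEFs. Points are libraries, lines are means, and bars are SDs of 3 replicates. The BMP4 ratio is lowest in PGCs and highest in EGK.X blastoderms, while the SMAD1 ratio is highest in PGCs and lowest in CEFs.

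Among the 25 pluripotency regulating genes with an identifier, INHBA had the lowest log2 fold change in both comparisons against CEFs. BMP4 ranked 4th from the lowest in PGCs against CEFs, 5th from the highest in EGK.X blastoderms against CEFs, and next to the lowest in PGCs against EGK.X blastoderms, where only WNT3A, a Wnt ligand gene, was lower with a log2 fold change of -9.65. Of the 22 genes other than the 3, 4 were called higher and 8 lower in PGCs against CEFs, where 23.7% of all genes were called higher and 18.5% lower, with a median log2 fold change of -0.63 against 0.05 for all genes. In EGK.X blastoderms against CEFs, 7 were called higher and 7 lower, against 23.1% higher and 21.6% lower among all genes, with a median of -0.15 against 0.09. In PGCs against EGK.X blastoderms, 3 were called higher and 6 lower, against 23.4% higher and 18.5% lower among all genes, with a median of -0.72 against 0.03. BMPR1A lay below these medians in both comparisons of PGCs. The list is the study's own, and the counts describe the listed genes only.

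**Figure D5:**
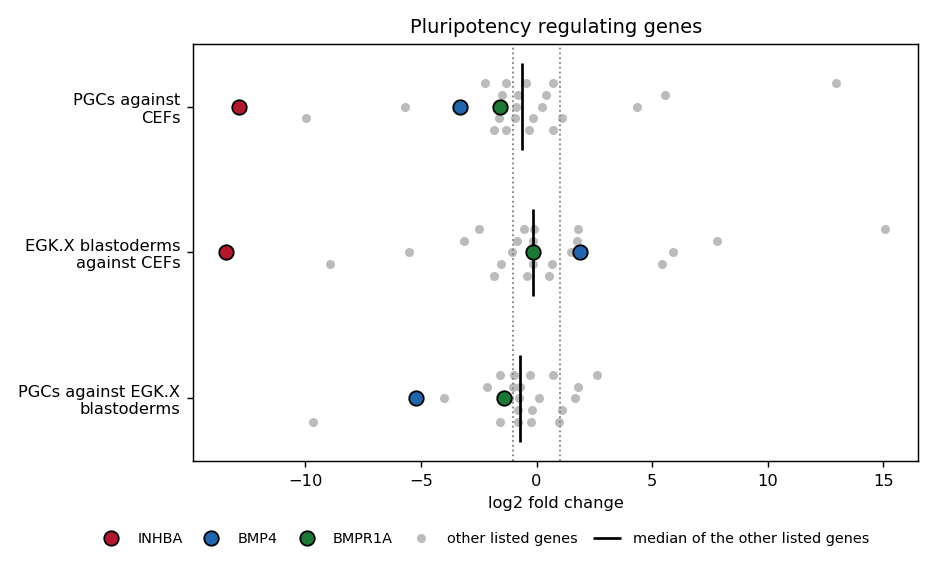
Log2 fold change (horizontal axis) of the 25 pluripotency regulating genes in each comparison (rows, with a small vertical offset to separate points). Coloured points are INHBA, BMP4, and BMPR1A, grey points are the other listed genes, vertical strokes are the medians of the other 22 genes, and dotted lines mark changes of 1 and -1. INHBA is farthest to the left in both comparisons against CEFs, and BMP4 changes sides between PGCs and EGK.X blastoderms. INHBA is not drawn for PGCs against EGK.X blastoderms.

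In profile over the libraries, FGF2, a fibroblast growth factor gene, had the profile closest to INHBA among the 152 other named genes with counts. Closeness was the root mean square difference over the 9 libraries between profiles of log2(CPM + 1), each centred on its mean, and it was 1.42 for FGF2. FGF2 had 1.27 to 2.02 CPM in PGCs, 0.925 to 2.51 CPM in EGK.X blastoderms, and 52.8 to 107 CPM in CEFs, so that it was detected in all 9 libraries. MAP3K5, a stress kinase gene, followed at 2.09 and FAS, a death receptor gene, at 2.22. Among all genes, 140 were closer to INHBA than FGF2 was.

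For BMP4, the closest named gene was MYC, which encodes a transcription factor of growing cells, at a root mean square difference of 0.33. Only 1 of all genes tested was closer, ENSGALG00000028354. MYC had 15.0 to 18.3 CPM in PGCs, 179 to 396 CPM in EGK.X blastoderms, and 70.6 to 94.1 CPM in CEFs, the same order of groups as BMP4. BMP4 in PGCs lay near the 1 CPM added before the logarithm, which shrinks its changes there. In the fit, log2 fold changes of MYC and BMP4 were -2.24 and -3.32 in PGCs against CEFs. They were -3.99 and -5.21 in PGCs against EGK.X blastoderms, and 1.75 and 1.89 in EGK.X blastoderms against CEFs. The next named genes were the DNA repair genes POLB and FEN1, the farther of them at 1.11. For BMPR1A, the closest named genes were JAK1, a cytokine receptor kinase gene, at 0.21, STAT3, a transcription factor gene, at 0.23, and HMGB1, a chromatin protein gene, at 0.27. JAK1 had 205 to 213 CPM in PGCs, 343 to 459 CPM in EGK.X blastoderms, and 537 to 631 CPM in CEFs. Within a difference of 0.5 there were 12 genes for INHBA, 12 for BMP4, and 1515 for BMPR1A. A profile with changes as modest as those of BMPR1A is within this difference of many genes, also of genes that change less, so the 3 counts are not compared. The libraries of a group share their source, and these differences mostly compare 3 group levels.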

How the data were processed

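Per the submitters' notes and the study's methods, Trimmomatic 0.39 served for trimming, HISAT2 2.2.0 for alignment to GRCg6a, and HTSeq-count for counting on Ensembl release 101. The strand setting and overlap mode are not given in the sources used here. The deposited counts are whole numbers per gene without normalization, and the 5 summary entries were left out, so that 48.5% to 53.4% of the records of a library were used. The authors also deposited a normalized signal per gene, the counts scaled to TMM-adjusted CPM, which was recomputed to within 3.25e-06%.

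Groups followed the sample titles. All 9 libraries and the 22698 genes that had any count entered a single fit in edgeR 4.0.16 under R 4.3.3 (TMM factors, quasi-likelihood test, prior count of 0.125, no replicate block, Benjamini-Hochberg adjustment over all genes). Calls needed an adjusted p below 0.05 and an absolute log2 fold change above 1. Standard errors were derived from the F statistic. The replicates were separate pools of embryos or gonads. The p-values set the difference between groups against the spread between replicates. That spread was estimated over the 3 groups together and moderated across genes, although the groups differed in how far their replicates varied. The test was first tried on simulated counts, in which 200 genes were changed in PGCs and the groups shared the same spread. The data differ in both respects, so that trial does not show how the test performs on them. Alternatives changed the test (the likelihood ratio test that the study used, DESeq2 1.42.0, or limma 3.58.1 on the normalized values with a pseudocount of 1), the scaling (DESeq2 size factors, upper-quartile factors, or library size alone), the filter (filterByExpr, or 10 counts throughout a group), the prior count (2), the design (the compared pair of groups alone, or a replicate block), or the libraries (each left out in turn). Names and coordinates came from the study's gene list, since the reference table pairs no Ensembl identifiers with names. Other genes of the pathways were therefore not analysed here. The genes named were the 3 members, ACVR1C and SMAD1, and for each member the 3 named genes closest in profile. The members and lists were chosen with earlier results of these data known. WNT3A and the closest unnamed gene to BMP4 were named after their values were seen.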

Additional observations from a re-analysis of the deposited data

How the results depend on the processing

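INHBA in both comparisons against CEFs, BMP4 in all 3 comparisons, and BMPR1A in PGCs against EGK.X blastoderms kept their direction and call under each of the 20 alternatives. INHBA in PGCs against EGK.X blastoderms was not run under them. The lower call of BMPR1A in PGCs against CEFs was lost with library size alone, at -0.88. Its log2 fold change in EGK.X blastoderms against CEFs, which was not called, changed sign with library size alone (0.34), with upper-quartile factors (0.032), and without EGK.X blastoderm replicate 3 (0.027), and leaving out single libraries gave -0.30 to 0.027. SMAD1 was called higher in both comparisons against CEFs with library size alone. ACVR1C was called higher in PGCs against CEFs without CEF replicate 1. In PGCs against EGK.X blastoderms it was called higher without CEF replicate 2 and in the fit of only the 2 groups compared. The log2 fold change of ACVR1C in EGK.X blastoderms against CEFs changed sign with library size alone (0.084) and without CEF replicate 1 (0.41), and leaving out single libraries gave -0.80 to 0.41. For this comparison, library size alone raised the median of all genes by 0.50 and upper-quartile factors by 0.18. The size of the INHBA change was the least stable. A prior count of 2 gave -11.84 in PGCs and -12.08 in EGK.X blastoderms, limma on log2(normalized value + 1) gave -7.87 and -7.88, and leaving out single libraries gave -14.21 to -12.54 in PGCs, the lowest without PGC replicate 1. With limma, 6596 genes were called in EGK.X blastoderms against CEFs, against 10141 in the reported fit, and 6255 in PGCs against EGK.X blastoderms, against 9500. The cause was not tested. Among the profile differences, FGF2 to INHBA moved to 2.57 and MYC to BMP4 to 0.58 with a pseudocount of 0.1. FGF2 to INHBA also moved to 1.24 without CEF replicate 2.

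Replicate numbers are shared between groups, but same-numbered libraries deviated from their group means with correlations across genes from -0.17 to 0.23, so the numbers were not taken as pairs. With the replicate block, 9102 genes were called in PGCs against CEFs, 9618 in EGK.X blastoderms against CEFs, and 8905 in PGCs against EGK.X blastoderms, and no call changed for BMP4 or BMPR1A, or for INHBA against CEFs. Depth limits INHBA outside CEFs and ACVR1C in CEFs, with 4 counts in replicate 2.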
